A study of Mus musculus with 22 samples.

Results

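The choroid plexus (ChP) of the lateral ventricles (LV) was compared with that of the fourth ventricle (4V) in adult Otx2 lox/lox mice injected with Cre-Tat, to find which differences between the ventricles remained after treatment. Cre-Tat is a recombinant Cre recombinase fused to a cell-penetrating peptide, and it was injected into the lateral ventricles to delete the floxed part of *Otx2*, the gene of a homeodomain transcription factor. The comparison rests on 4 pools of the 14 in the series, chosen by the library numbers of their files, with 2 LV pools (A and B) and 2 4V pools (A and B) labelled Cre-Tat. The mice were of strain S129 and 3 months old, their ChP was dissected 15 days after the injection, and each pool held tissue of 5 mice of both sexes. The 4 vehicle pools of the same genotype, strain and age, with 4 mice a pool, gave the same regional comparison without Cre-Tat. Cre-Tat was not injected into the fourth ventricle. Whether the LV and 4V pools with one letter came from the same mice is not stated in the sources used here.

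The ChP is a sheet of ciliated secretory epithelium around a core of vessels and stroma, and it makes cerebrospinal fluid and forms the barrier between blood and fluid. The LV ChP arises from the dorsal midline of the telencephalon, and the 4V ChP from the roof plate of the hindbrain. Tissue of each origin carries transcription factors of its own part of the neural tube: EMX, DMRT and OTX factors in the forebrain, and HOX, MEIS, engrailed and Iroquois factors toward the hindbrain. OTX2 is made in both plexuses, where it is needed for their formation.

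The deposited files and the labels conflict: 14 of the 16 files of these 8 pools carry another library number than the sample they were deposited under, and 12 would fall in another group by that sample. Joined by library number, the paired runs of a pool differed by no more than sampling noise (chi-square per degree of freedom between 1.00 and 1.03). Paired as deposited, it was between 12.2 and 18.7. All groups below are by library number. As attached, neither side of the Cre-Tat comparison contained a library numbered as 4V. Among named genes called by library number or as attached, 55 then had log2 fold changes of the opposite sign. Depth ranged from 45254165 to 50088408 counted reads per pool in Cre-Tat LV, from 35382197 to 39070251 in Cre-Tat 4V and from 22750019 to 46827601 in vehicle, so genes with few reads were measured least well in 4V. Values below are normalized counts, that is, reads on the most counted transcript of a gene, scaled for library size over the 8 pools. They are not divided by transcript length and are compared only between pools.

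*Otx2* itself did not differ detectably between the ventricles. Otx2-201, its most counted transcript, had 23235 and 19259 normalized counts in Cre-Tat LV pools A and B and 22591 and 22962 in Cre-Tat 4V pools A and B (log2 fold change -0.10, standard error 0.20, adjusted p = 0.854, edgeR). The vehicle pools held 7244 and 8825 in LV and 7248 and 7391 in 4V, below every pool labelled Cre-Tat. The count covers the whole transcript and not the deleted part apart, so it cannot check the labels, against whose direction it runs. The pools are therefore called by their labels.

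Transcription factors and a secreted signal of the embryonic neural tube were among the genes with large differences between the ventricles. The 250 bases before the RefSeq start are printed from RefSeq on GRCm38.p6 for the genes with the largest log2 fold changes among those of the patterning lists below that were called and matched with a start within 50 bases of that of the counted transcript, 2 higher in LV (Dmrt3 and Dmrta2) and 3 higher in 4V (Gdf7, Hoxa2 and Irx2). They show the sequence beside which these regional levels were measured. Capitals mark TGACAG or its reverse complement CTGTCA, the core bound by MEIS factors. TAATCC and its reverse complement GGATTA, the core bound by OTX factors, would also be in capitals. Neither motif lies within the other.
Dmrt3, chr19:25610287-25610536, plus strand: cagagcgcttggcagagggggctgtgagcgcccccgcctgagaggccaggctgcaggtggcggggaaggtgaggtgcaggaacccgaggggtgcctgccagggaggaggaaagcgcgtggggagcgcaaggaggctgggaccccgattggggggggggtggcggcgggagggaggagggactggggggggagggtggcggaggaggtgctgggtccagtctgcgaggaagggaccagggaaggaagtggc
Dmrta2, chr4:109977775-109978024, plus strand: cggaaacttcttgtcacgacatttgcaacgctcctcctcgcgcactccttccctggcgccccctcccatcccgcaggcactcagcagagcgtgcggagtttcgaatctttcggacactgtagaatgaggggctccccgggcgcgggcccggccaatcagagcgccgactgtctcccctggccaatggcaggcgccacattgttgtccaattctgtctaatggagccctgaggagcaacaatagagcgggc
Gdf7, chr12:8301955-8302204, minus strand: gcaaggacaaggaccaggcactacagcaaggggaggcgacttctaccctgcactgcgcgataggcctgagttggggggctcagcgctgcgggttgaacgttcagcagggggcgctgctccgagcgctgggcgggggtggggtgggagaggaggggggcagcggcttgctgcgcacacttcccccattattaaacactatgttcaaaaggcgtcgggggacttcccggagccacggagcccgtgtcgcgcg
Hoxa2, chr6:52164832-52165081, minus strand: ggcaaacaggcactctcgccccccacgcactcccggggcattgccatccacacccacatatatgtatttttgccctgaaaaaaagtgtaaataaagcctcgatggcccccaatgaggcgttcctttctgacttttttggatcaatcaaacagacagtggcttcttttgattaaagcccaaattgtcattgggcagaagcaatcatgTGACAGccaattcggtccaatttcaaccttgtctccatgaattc
Irx2, chr13:72628570-72628819, plus strand: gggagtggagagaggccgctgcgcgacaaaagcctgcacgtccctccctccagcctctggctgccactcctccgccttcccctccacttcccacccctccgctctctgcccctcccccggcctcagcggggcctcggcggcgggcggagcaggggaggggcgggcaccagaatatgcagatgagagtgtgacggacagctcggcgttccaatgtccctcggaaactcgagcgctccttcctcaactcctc
Of the 19 genes called in the forebrain, hindbrain, Hox and roof plate lists described next, 13 were matched by symbol. None of these 13 windows held TAATCC and 3 held TGACAG, in *Hoxa2*, *Zic4* and *Six3*. Over all 32851 promoter windows of the table, 6.25% held the first motif and 15.9% the second. With 68.4% of the genes matched, no comparison of shares was made. A match is only a stretch of letters, and its absence here says nothing of binding elsewhere.

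Of 15111 genes tested in the Cre-Tat pools, 887 (5.87%) passed an adjusted p of 0.05, 451 (2.98%) higher in LV and 436 (2.89%) higher in 4V. The p-values came from the quasi-likelihood F test of edgeR and were adjusted by the Benjamini-Hochberg method across the whole table. Scaling by total counts in place of TMM (trimmed mean of M-values) moved the median over all genes to a log2 fold change of -0.17 and the split to 369 higher in LV and 1164 higher in 4V. Among the genes called, the median absolute log2 fold change was 1.13 for those higher in LV and 1.09 for those higher in 4V, and 87 and 79 of them differed by over 4-fold. Without Cre-Tat 4V pool B the count was 441, and without Cre-Tat LV pool A it was 1504, so the number of genes past the threshold depends on single pools. An exact two-sided permutation test of 2 pools against 2 cannot give a p under 0.333, and the test therefore relies on the spread shared across genes. In bulk tissue, fewer cells of a type and less RNA per cell cannot be told apart.

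Of 16 forebrain patterning genes in the files, 9 had enough counts to be tested after Cre-Tat, and 5 of these transcription factors were higher in LV and none in 4V. Genes such as *Emx2*, *Lmx1b* and the Hox genes passed the filter on low counts through the pools of one ventricle alone, so the counts over tested members of the patterning lists are a description of those members. The same holds for the other lists below where members had few reads in one ventricle. Log2 fold changes are LV over 4V, with a median of -0.01 over all genes tested. Of all genes tested, 2.98% were called higher in LV and 2.89% higher in 4V. The largest difference was that of *Dmrt3* (ENSMUSG00000042372, chromosome 19 of GRCm38 from 25610301 to 25623921, plus strand), a doublesex-related factor of the dorsal telencephalon. It had 633 and 589.8 normalized counts in the LV pools and 30.6 and 1.89 in 4V, a 38.3-fold difference of the means (log2 fold change 5.26, standard error 0.43, adjusted p = 3.91e-07). Both LV pools stood far above both 4V pools, and the 4V pools themselves differed widely, with 30 reads in pool A and 2 in pool B. *Dmrta2*, a related factor, followed with 339 and 261 in LV and 12.2 and 3.78 in 4V (log2 fold change 5.23, standard error 0.35, adjusted p = 4.05e-08). *Emx2* (ENSMUSG00000043969, chromosome 19 of GRCm38 from 59458372 to 59465357, plus strand), a homeobox gene of the cerebral cortex, had 98.9 and 107 in LV and 5.10 and 3.78 in 4V (log2 fold change 4.50, standard error 0.42, adjusted p = 2.49e-06). *Otx1*, the relative of *Otx2*, had 62.7 and 87.9 in LV and 3.06 and 2.84 in 4V (log2 fold change 4.62, standard error 0.51, adjusted p = 1.41e-05). The pools of these 4 genes did not overlap between the ventricles, as was so for 48.3% of all genes tested (53.8% in the vehicle pools). *Six3*, a factor of the most anterior forebrain, was low in every pool, with 18.1 and 17.2 normalized counts in LV and 3.06 and 0 in 4V (adjusted p = 0.0204), and its call was lost without 4V pool B and in 2 other settings.

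The other forebrain genes tested did not pass the threshold. *Pax6* had 31.7 and 36.2 normalized counts in LV and 26.5 and 27.4 in 4V, *Emx1* 51.3 and 73.3 in LV and 69.4 and 74.8 in 4V, and *Nr2f1* 135 and 149 in LV and 153 and 168 in 4V. *Nr2f2*, a nuclear receptor gene, had 1173 and 1016 in LV and 859.7 and 1024 in 4V, with overlapping groups (adjusted p = 0.584).

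Hox genes set position along the hindbrain and spinal cord. Of 39 Hox genes in the files, 16 had a read in any of the 8 pools and 3 could be tested, through their reads in 4V, which fixed the direction in which they could differ. *Hoxb2* (ENSMUSG00000075588, chromosome 11 of GRCm38 from 96350525 to 96354012, plus strand), a determinant of hindbrain segments, had no read in either LV pool and 22.4 and 27.4 normalized counts in 4V. Set against a floor of 3 reads per pool, it was at least 10.3-fold higher in 4V (adjusted p = 0.000416, edgeR). *Hoxa2* had 0 and 1.72 in LV and 23.5 and 31.2 in 4V (log2 fold change -4.90, standard error 0.84, adjusted p = 0.00122), and *Hoxb4* 0 and 6.04 in LV and 30.6 and 27.4 in 4V (log2 fold change -3.29, standard error 0.76, adjusted p = 0.0129). The *Hoxb4* call was lost with DESeq2 and with counts summed over transcripts. No read was counted in any pool for 23 Hox genes.

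Of 28 other hindbrain and midbrain patterning genes, 12 could be tested, and 7 (58.3%) were higher in 4V and none in LV. Of all genes tested, 2.89% were higher in 4V, and several of the 12 entered through their 4V pools alone. *Meis1* (ENSMUSG00000020160, chromosome 11 of GRCm38 from 18879817 to 19018985, minus strand), a cofactor of HOX proteins, had 19.6 and 13.8 normalized counts in the LV pools and 420.2 and 449 in 4V, which is 25.7-fold higher in 4V (log2 fold change -4.68, standard error 0.25, adjusted p = 2.04e-09). Its relative *Meis2* had 30.2 and 47.4 in LV and 244 and 292 in 4V (log2 fold change -2.80, standard error 0.26, adjusted p = 1.99e-06). *Pbx3*, another cofactor of the same class, was present in both plexuses, with 117 and 118 in LV and 271 and 234 in 4V (log2 fold change -1.10, standard error 0.21, adjusted p = 0.00264). In each of these genes both 4V pools lay above both LV pools, and pools did not overlap for 48.3% of all genes tested. The LIM-homeodomain gene *Lmx1b* had 1.51 and 3.45 in LV and 74.4 and 137 in 4V (log2 fold change -5.39, standard error 0.52, adjusted p = 3.06e-06). *En2*, an engrailed gene of the boundary between midbrain and hindbrain, had 3.02 and 0.862 in LV and 64.3 and 57.7 in 4V (log2 fold change -4.85, standard error 0.57, adjusted p = 3.55e-05). Of the Iroquois genes, *Irx2* had 0 and 2.59 in LV and 37.7 and 32.2 in 4V, and *Irx5* 26.4 and 25.01 in LV and 91.8 and 114 in 4V (log2 fold changes -4.72 and -1.99). *Irx3* did not pass the threshold and lay toward LV, with 23.4 and 16.4 in LV and 7.14 and 11.4 in 4V. *Meis3* and *Pax3* did not pass it either, with log2 fold changes of -0.32 and 0.86.

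Genes of the roof plate and of ChP fate included *Gdf7*, with a large difference, and others present in both plexuses. Of 16 tested, 4 (25%) were higher in 4V and none in LV, beside 2.89% of all genes tested higher in 4V. The median log2 fold change of the list was -0.40. *Gdf7* (ENSMUSG00000037660, chromosome 12 of GRCm38 from 8297918 to 8301954, minus strand), a BMP-family signal of the roof plate, had 8.30 and 10.3 normalized counts in the LV pools and 352 and 359 in 4V (log2 fold change -5.24, standard error 0.28, adjusted p = 2.04e-09). The 4V level was 37.9 times that in LV, and the pools of each ventricle lay close together. Smaller differences were seen for *Gmnc*, which drives the multiciliated fate, with 616 and 718 in LV and 1415 and 1774 in 4V (log2 fold change -1.26, standard error 0.19, adjusted p = 0.000339). The zinc finger gene *Zic4* had 328 and 311 in LV and 561 and 575 in 4V (log2 fold change -0.83), and its call was lost without 4V pool B. *Lmx1a*, *Msx1*, *Zic1*, *Foxj1*, *Trp73* and *Rfx3*, all well expressed, did not pass the threshold, with log2 fold changes from -0.41 to 0.12.

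Hedgehog signals pattern the hindbrain and its ChP. Of 11 genes of the pathway tested, 3 (27.3%) were higher in 4V and none in LV (median log2 fold change -0.26). Of all genes tested, 2.89% were higher in 4V. *Hhip*, which binds and retains hedgehog ligands, had 9.81 and 12.9 normalized counts in LV and 78.5 and 79.5 in 4V (log2 fold change -2.79, standard error 0.39, adjusted p = 0.000172). *Disp1*, which releases the ligands from cells, had 160.1 and 159 in LV and 606 and 637 in 4V (log2 fold change -1.96, standard error 0.19, adjusted p = 3.08e-06). *Gas1*, a coreceptor, had 180.4 and 165 in LV and 276 and 275 in 4V (adjusted p = 0.045), close to the threshold, and lost its call in 7 of 13 other settings. The ligand gene *Shh* was too low to be tested, with 1.51 and 0.862 in LV and 1.02 and 10.4 in 4V. The receptor gene *Ptch1*, itself a target of the pathway, had 349 and 347 in LV and 304 and 436 in 4V with overlapping groups, and *Smo*, *Boc*, *Cdon* and *Gli2* did not pass the threshold either. Leaving out each pool in turn gave 7 hindbrain, 4 or 5 forebrain, 3 or 4 roof plate and 2 or 3 hedgehog genes past the threshold, in the same directions.

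**Figure D1:**
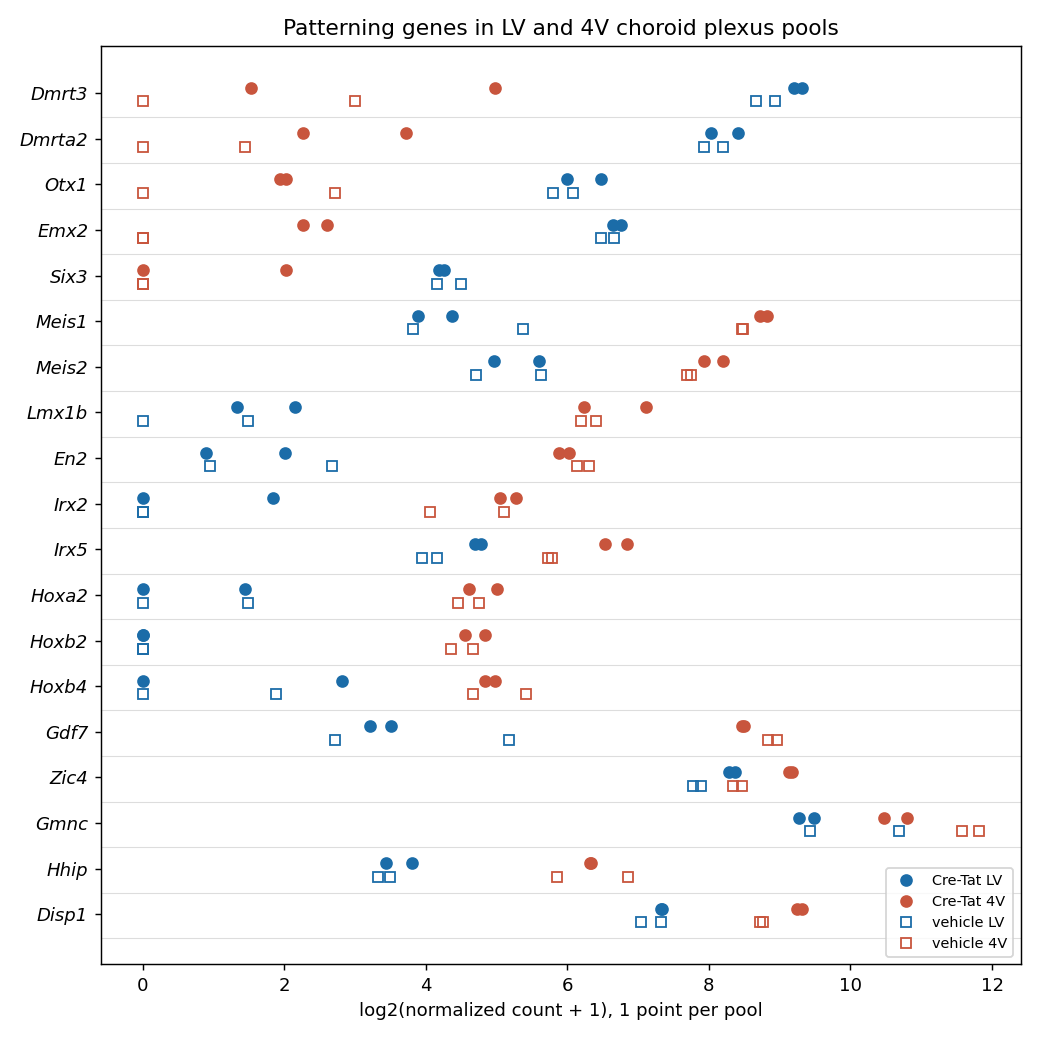
Levels of 19 patterning and hedgehog genes, as log2(normalized count + 1), with 1 point per pool: filled circles are Cre-Tat pools, open squares vehicle pools, blue LV and red 4V. In the Cre-Tat pools the blue and red points are apart for all 19 genes, with blue to the right for the first 5 and red to the right for the other 14.

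Beyond these lists, among genes with separate pools and a mean of at least 100 normalized counts in the higher ventricle, *Nrn1*, *Slc17a8* and *Adra2c* had the largest differences toward LV after Cre-Tat. Larger log2 fold changes, of up to 6.84 toward LV, were fitted to genes with fewer reads. *Nrn1*, the gene of the secreted neurite growth factor neuritin, had 348 and 514 normalized counts in the LV pools and 20.4 and 2.84 in 4V (log2 fold change 5.23, standard error 0.40, adjusted p = 2.09e-07). *Slc17a8*, a vesicular glutamate transporter gene, had 164 and 177 in LV and 9.18 and 7.57 in 4V (log2 fold change 4.33, standard error 0.33, adjusted p = 2.09e-07). *Adra2c*, an adrenergic receptor gene, had 92.9 and 111 in LV and 10.2 and 7.57 in 4V (log2 fold change 3.51, standard error 0.38, adjusted p = 1.31e-05). In all 3 genes the lower LV pool exceeded the higher 4V pool many times over. *Sptlc3*, a subunit of the enzyme that starts sphingolipid synthesis, was more abundant, with 763 and 659 in LV and 146 and 131 in 4V (log2 fold change 2.36, standard error 0.20, adjusted p = 5.79e-07). *Ano3*, *Nipal2*, *Slc6a17*, *Kcnab1* and the myelin gene *Mobp* were also among the 12 largest differences toward LV at that level, with log2 fold changes of 2.34 to 3.14.

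Differences among the most abundant genes were smaller. *Sulf1*, which trims heparan sulphate chains at the cell surface, had 16389.5 and 15397 normalized counts in LV and 6733 and 6354 in 4V (log2 fold change 1.28, standard error 0.19, adjusted p = 0.000358). *Vcam1*, an adhesion molecule for immune cells, had 9041 and 8603 in LV and 4607 and 3949 in 4V (log2 fold change 1.04, standard error 0.19, adjusted p = 0.00184). The rule that named both genes required separate pools, and their replicate pools lay close together. *Ctsl*, *Gpm6a* and the folate receptor gene *Folr1* were higher in LV by log2 fold changes of 0.93, 0.79 and 0.70 (adjusted p = 0.00525, 0.0217 and 0.0472). Each of these 3 lost its call without 4V pool B, and *Folr1* also without LV pool B, without 4V pool A and in 4 other settings.

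Toward 4V, *C1qtnf3*, *Dlk1* and *Tbc1d1* had the largest differences beyond the patterning lists among genes of the same minimum level, while genes with fewer reads, such as *Sfrp4* below, had larger ones. *Tbc1d1* (ENSMUSG00000029174, chromosome 5 of GRCm38 from 64156305 to 64351486, plus strand), a regulator of Rab GTPases and vesicle traffic, had 285 and 322 normalized counts in the LV pools and 3108 and 3438 in 4V (log2 fold change -3.43, standard error 0.20, adjusted p = 3.35e-09). *Dlk1*, an imprinted gene of the Notch ligand class, had 5.28 and 13.8 in LV and 226 and 277 in 4V (log2 fold change -4.74, standard error 0.34, adjusted p = 9.00e-08). *Pthlh*, the gene of parathyroid hormone-related protein, had 44.5 and 45.7 in LV and 357 and 291 in 4V (log2 fold change -2.84, standard error 0.23, adjusted p = 3.48e-07). Separate pools were required for these genes to be named, and in each both 4V pools lay far above both LV pools. *C1ql3* and *C1qtnf3* code for secreted proteins with a C1q domain, *C1ql3* with 85.3 and 55.2 in LV and 515 and 490.1 in 4V, and *C1qtnf3* with 10.6 and 0.862 in LV and 230.5 and 175 in 4V (log2 fold changes -2.83 and -5.06). In the vehicle pools *C1qtnf3* overlapped between the ventricles, with 11.7 and 5.61 in LV and 11.1 and 13.9 in 4V (adjusted p = 0.701), and the test of the difference between the comparisons gave an adjusted p of 0.255, which passed the threshold with no filter on low counts, with the pool letter as a block and without Cre-Tat LV pool A. *Ctxn3* and *Gm853* followed, with log2 fold changes of -2.50 and -2.42.

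Of the abundant genes, *Gpx3*, a secreted glutathione peroxidase, had 5014 and 7551 normalized counts in LV and 10747 and 15924 in 4V (log2 fold change -1.09, standard error 0.23, adjusted p = 0.00747), and the vehicle pools held only 123 and 382 in LV and 185 and 267 in 4V. For *Gpx3* the difference between the comparisons did not pass the threshold in edgeR's test (unadjusted p = 0.0284). *Zbtb20*, a zinc finger transcription factor gene, had 16595 and 13070 in LV and 20805 and 29002 in 4V (adjusted p = 0.0488). The *Gpx3* and *Zbtb20* calls were lost without 4V pool B, and that of *Zbtb20* also without LV pool B and in 4 other settings.

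The vehicle pools tell which of these differences were there without Cre-Tat. In the same test on 14561 genes, 1083 (7.44%) differed between the ventricles in the vehicle pools, 504 (3.46%) higher in LV and 579 (3.98%) higher in 4V. Without vehicle 4V pool B the count was 400, and without vehicle LV pool A it was 1968. Both comparisons use different libraries and share none. Of the 1083 genes, 1077 were tested in the Cre-Tat pools. There, 1058 (98.2%) had the same sign and 489 (45.4%) passed the threshold in the same direction, 242 toward LV and 247 toward 4V, while none passed it in the opposite direction in edgeR's test. Over the alternatives by library number, 0 to 3 did, with 2 for DESeq2 and 3 each for total counts and without vehicle LV pool A. These 45.4% stand against 5.87% of all genes called in the Cre-Tat pools. Counted the other way, 489 of the 843 Cre-Tat genes that were tested in the vehicle pools, or 58.0%, were called there. Without Cre-Tat 4V pool B, 270 of the vehicle genes passed the threshold in the Cre-Tat pools, and without vehicle 4V pool B, 271.

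The larger the difference had been in the vehicle pools, the more often it was called after Cre-Tat. The smallest absolute log2 fold change called was 0.59 in the Cre-Tat pools and 0.41 in the vehicle pools. Small vehicle differences were therefore harder to call again, and the shares below do not measure how many remained. The sign was kept by 646 of 661 genes under 2-fold and by 302 of 306 at 2- to 4-fold. Among genes that differed by under 2-fold in the vehicle pools, 212 of 661 (32.1%) were called in the same direction in the Cre-Tat pools. Among those with 2- to 4-fold differences it was 198 of 306 (64.7%), and among those over 4-fold 79 of 110 (71.8%), all 110 with the same sign. The median ratio of the Cre-Tat to the vehicle log2 fold change was 0.84, 0.82 and 0.80 in these classes. These genes were chosen in the vehicle pools and read in pools not used to choose them. Over all vehicle genes the ratio was 0.83. Genes chosen in the Cre-Tat pools had a median ratio of the vehicle to the Cre-Tat log2 fold change of 0.81. With such ratios in both directions, a weakening after Cre-Tat is not shown. Across the 14374 genes tested in both, the log2 fold changes had a Pearson correlation of 0.735, given as a description, since genes within the same libraries are not independent.

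The 20 largest vehicle differences in each direction were taken among genes with separate vehicle pools and a mean of at least 100 normalized counts in the higher ventricle. All 20 toward 4V were called again after Cre-Tat, and 19 of the 20 toward LV, beside 71.8% of all vehicle genes over 4-fold. The one that was not is *Cd44*, the hyaluronan receptor, named here after its values were seen. It had 118 and 158 normalized counts in vehicle LV and 13.9 and 15.6 in vehicle 4V (log2 fold change 3.21). In the Cre-Tat pools it had 196 and 89.7 in LV and 83.6 and 61.5 in 4V (log2 fold change 0.98, adjusted p = 0.0744), and the test of the difference between the comparisons gave an adjusted p of 0.86. The patterning and hedgehog lists held 24 genes called in the vehicle pools. Of these, 21 were called again and all 24 kept their sign, and the 3 not called again were *Nr2f2*, *Lmx1a* and *Cdon*. Over all vehicle genes, 45.4% were called again and 98.2% kept their sign. Several of the 24 passed the filter on low counts through the pools of one ventricle alone, which fixed their direction. These counts are therefore a description of those members. In the vehicle pools *Hoxb2* had no read in LV and 19.5 and 24.3 normalized counts in 4V. *Dmrt3* had 406 and 489.8 in vehicle LV and 6.96 and 0 in vehicle 4V, and *Meis1* 40.4 and 13.1 in vehicle LV and 354 and 356 in vehicle 4V.

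**Figure D2:**
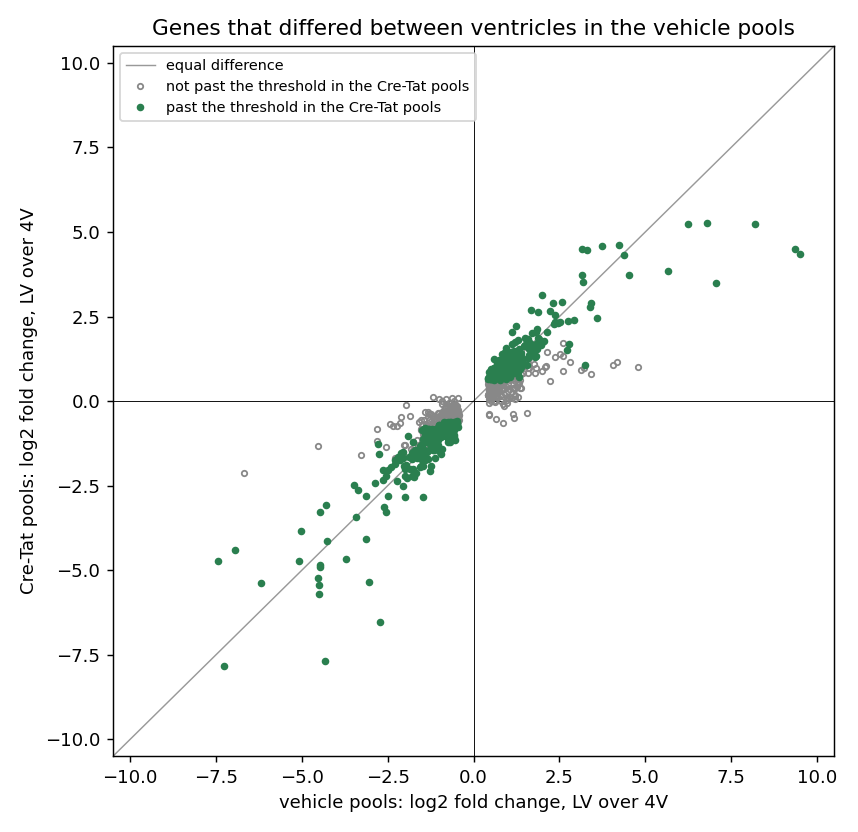
Each point is 1 of the 1077 genes that differed between ventricles in the vehicle pools and were tested in the Cre-Tat pools, with the log2 fold change (LV over 4V) in the vehicle pools on the x axis and in the Cre-Tat pools on the y axis. Green points, 489 genes, passed the threshold in the same direction after Cre-Tat, grey open points did not, and the line marks equal differences. Of the 1077 points, 1058 have the same sign on both axes.

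Signalling pathways had members on both sides. Of 31 Wnt pathway genes tested, 3 were higher in LV and 3 in 4V (median log2 fold change 0.02). That is 19.4% in all, beside 5.87% of all genes tested. *Sfrp4* and *Wnt2* below entered the test through their 4V pools alone, which fixed their direction. The share is therefore a description of the members tested. *Sfrp5* and *Dkk3*, both of secreted Wnt inhibitor families, were higher in LV. *Sfrp5* had 516 and 677 normalized counts in LV and 262 and 268 in 4V, and *Dkk3* 565 and 535 in LV and 268 and 238 in 4V. *Sfrp4*, of the same family as *Sfrp5*, lay the other way, with 0.755 and 0 in LV and 60.2 and 34.1 in 4V (log2 fold change -6.52, standard error 0.81, adjusted p = 5.40e-05). The ligand gene *Wnt2* had 0.755 and 0.862 in LV and 14.3 and 16.1 in 4V, and its call was lost on leaving out 4V pool A or B. Leaving out either of them left 1 Wnt gene called toward 4V. All 4 Wnt genes called in the vehicle pools were called again, beside 45.4% of all vehicle genes.

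Of 39 BMP and TGF-beta genes tested, 5 were higher in LV and 2 in 4V (median 0.07), 17.9% in all beside 5.87% of all genes tested. *Grem1* entered the test through its 4V pools alone, which fixed its direction. The BMP antagonist gene *Grem1* was higher in 4V, with 0.755 and 0.862 normalized counts in LV and 22.4 and 16.1 in 4V (log2 fold change -4.40), and its call was lost without 4V pool A. *Inhbb*, an activin subunit gene, had 106 and 94.8 in LV and 35.7 and 33.1 in 4V (log2 fold change 1.55, standard error 0.30, adjusted p = 0.00324). The ligand gene *Bmp5* had 527.7 and 362 in LV and 260.1 and 236 in 4V, with a log2 fold change of 0.84 whose call was lost without 4V pool B and without LV pool A. Of 13 genes of this list called in the vehicle pools, 7 were called again and all 13 kept their sign. Over all vehicle genes it was 45.4% and 98.2%. Without 4V pool B, 1 member was called in each direction, and without 4V pool A 3 toward LV and 1 toward 4V.

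Of 14 genes of the insulin-like growth factor axis tested, 2 were higher in LV and 2 in 4V. That is 28.6% of a short list, beside 5.87% of all genes tested. *H19* below entered the test mainly through its 4V pools, which favoured its direction. Of 6 binding protein genes tested, *Igfbp3* and *Igfbp4* were called toward LV and *Igfbp6* toward 4V, and *Igfbp2*, *Igfbp5* and *Igfbp7* did not pass the threshold. *Igfbp3* had 2214 and 1851 normalized counts in LV and 549.7 and 615 in 4V (log2 fold change 1.802, standard error 0.19, adjusted p = 6.89e-06), and *Igfbp4* 2416 and 2029 in LV and 1040.3 and 831 in 4V (log2 fold change 1.25, standard error 0.19, adjusted p = 0.000399). *Igfbp6* lay toward 4V, with 48.3 and 87.9 in LV and 235 and 125 in 4V, and lost its call without 4V pool A. The imprinted non-coding RNA *H19* had 3.77 and 9.48 in LV and 49.0 and 69.1 in 4V (log2 fold change -3.16, standard error 0.50, adjusted p = 0.00058).

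Axon guidance genes, which code for cues and receptors used in many tissues, had 7 members higher in LV and 8 in 4V of 58 tested (median 0.22). That is 25.9% in all, beside 5.87% of all genes tested. The best supported were toward 4V. *Slit2*, a secreted repellent, had 2541 and 2093 normalized counts in LV and 4906 and 6976 in 4V (log2 fold change -1.36, standard error 0.20, adjusted p = 0.000394). The netrin gene *Ntn1* had 45.3 and 56.9 in LV and 146 and 174 in 4V, and *Unc5c*, of the netrin receptors, 38.5 and 49.1 in LV and 139.7 and 149.5 in 4V (log2 fold changes -1.65 and -1.73). *Nrp2*, a semaphorin receptor gene, had 676 and 585 in LV and 1174 and 1417 in 4V (log2 fold change -1.04, standard error 0.18, adjusted p = 0.00149). The pools of these genes did not overlap between the ventricles, as was so for 48.3% of all genes tested. Without 4V pool B, 5 members were called in each direction. Of 13 members called in the vehicle pools, 7 were called again, beside 45.4% of all vehicle genes.

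Transport and barrier lists had members called in both directions. Of 84 ion channel and aquaporin genes tested, 15 were higher in LV and 3 in 4V, 21.4% in all beside 5.87% of all genes tested, with a median log2 fold change of 0.38. The number toward LV was 8 without 4V pool A, 9 without 4V pool B and 24 without LV pool A. *Cacna1h*, a T-type calcium channel gene, had 232 and 304 normalized counts in LV and 65.3 and 41.6 in 4V (log2 fold change 2.32, standard error 0.26, adjusted p = 1.43e-05). *Cacnb3*, a calcium channel subunit gene, was higher in 4V, with 294 and 269.9 in LV and 888 and 1035 in 4V (log2 fold change -1.77, standard error 0.18, adjusted p = 6.63e-06), and had only 12.6 and 29.0 in LV and 22.3 and 22.6 in 4V in the vehicle pools. For *Cacnb3* the difference between the comparisons did not pass the threshold in edgeR's test (unadjusted p = 0.00145). The 15 channels higher in LV include *Kcna1*, *Scn1a*, *Scn2b* and *Scn8a*, which neurons use, beside the neuronal markers given below.

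Of 261 genes listed by a solute carrier symbol, 17 were higher in LV and 9 in 4V, 9.96% in all beside 5.87% of all genes tested. The number toward LV was 7 without 4V pool B and 29 without LV pool A. *Slc1a2*, the glutamate transporter of astrocytes, had 651 and 945 normalized counts in LV and 187 and 155 in 4V (log2 fold change 2.22, standard error 0.21, adjusted p = 3.08e-06). *Slc35f1* had 972 and 742 in LV and 308 and 282 in 4V (log2 fold change 1.54, standard error 0.19, adjusted p = 5.40e-05). The list holds by symbol 2 scaffold proteins and a pseudogene among its called members (*Slc9a3r1*, *Slc9a3r2* and *Slc2a4rg-ps*). Of 32 members called in the vehicle pools, 16 were called again, beside 45.4% of all vehicle genes.

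Collagens had 5 members higher in LV and 3 in 4V of 36 tested, 22.2% in all beside 5.87% of all genes tested. *Col5a3* below entered the test through its 4V pools alone, which fixed its direction. The basement membrane chains *Col4a1* and *Col4a2* were higher in LV. *Col4a1* had 534 and 559 normalized counts in LV and 261 and 269 in 4V, and *Col4a2* 452 and 480.3 in LV and 249 and 298 in 4V. Vessels also make these chains, and the endothelial markers given below moved with them, whose part in this result was not tested. *Col23a1* had 316 and 336 in LV and 149.9 and 162 in 4V (log2 fold change 1.06, standard error 0.19, adjusted p = 0.00211), while *Col5a3*, at low counts, lay toward 4V with 3.77 and 3.45 in LV and 22.4 and 31.2 in 4V. The *Col4a2* call was lost without 4V pool A and that of *Col5a3* without 4V pool B. Of 31 claudin, cadherin and tight junction genes, 3 were higher in LV and 2 in 4V, 16.1% in all. E-cadherin (*Cdh1*) had 19.6 and 65.5 normalized counts in LV and 251 and 152 in 4V (log2 fold change -2.26, standard error 0.37, adjusted p = 0.000877) and *Cdh18* 82.3 and 112 in LV and 226 and 206 in 4V (log2 fold change -1.16, standard error 0.23, adjusted p = 0.00384), while *Cdh6* and *Cdh19* lay toward LV and lost their calls without 4V pool A and without LV pool A or 4V pool B, respectively. The *Cdh1* call was lost with DESeq2. Without 4V pool B, 3 collagens were called toward LV and none toward 4V, and without 4V pool A 3 and 4. Of 7 junction genes called in the vehicle pools, 2 were called again, beside 45.4% of all vehicle genes.

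**Figure D3:**
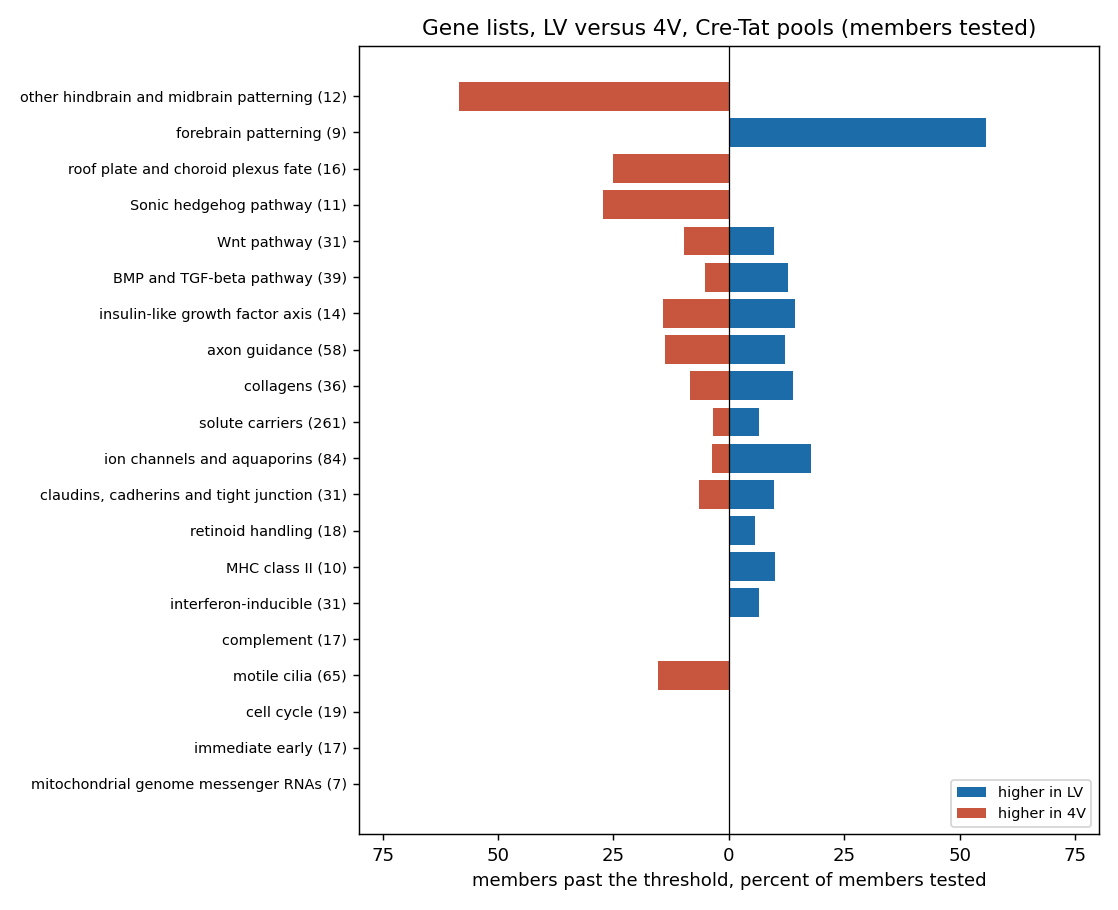
Share of the tested members of 20 gene lists, without the Hox genes, that passed the threshold in the Cre-Tat pools, with the number tested in brackets. Blue bars to the right are members higher in LV and red bars to the left members higher in 4V, in percent of the members tested. The forebrain list has bars on the LV side only, and 4 lists have no bar. Several members of the patterning lists, and low-count members of other lists such as *Sfrp4*, *Wnt2*, *Grem1* and *Col5a3*, entered through the pools of one ventricle alone.

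The motile cilia genes called were higher in 4V. Of 65 dynein, intraflagellar transport and related genes tested, 10 (15.4%) were higher in 4V and none in LV, with a median log2 fold change of -0.15. Of all genes tested, 5.87% were called and 2.89% were higher in 4V. Without 4V pool B, 2 were called. *Dnah6*, an axonemal motor gene, had 3695 and 3641 normalized counts in LV and 5533 and 8493 in 4V (log2 fold change -0.94, standard error 0.21, adjusted p = 0.0101), and *Dnah11* 3057 and 2653 in LV and 4486 and 6197 in 4V (log2 fold change -0.91, standard error 0.20, adjusted p = 0.00889). *Cfap46*, of the axoneme, had 182 and 192 in LV and 435 and 650.0 in 4V (log2 fold change -1.54, standard error 0.21, adjusted p = 0.000164). Pool 4V B was the highest for each of these genes, and the calls of *Dnah6*, *Dnah11* and *Cfap74* were lost without it. Of 11 cilia genes called in the vehicle pools, 8 were called again, beside 45.4% of all vehicle genes. The nuclear RNAs *Malat1* and *Neat1* moved with this list, *Malat1* with 119497 and 115915 in LV and 196015 and 266278 in 4V and *Neat1* with 6371 and 4993 in LV and 11844 and 15725 in 4V (log2 fold changes -0.97 and -1.28). The *Malat1* call was lost without 4V pool B, and the part of these RNAs in the cilia result was not tested.

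Immune and stress lists had 0 to 2 members called after Cre-Tat. Of 10 MHC class II genes tested, 1 (10%, beside 5.87% of all genes) was higher in LV, *H2-Ab1*, with 2632 and 2067 normalized counts in LV and 1705 and 1112 in 4V (adjusted p = 0.0445, lost without 4V pool B and in 4 other settings), though all 10 had positive log2 fold changes. Of 31 interferon-inducible genes, 2 (6.45%) were higher in LV. *Gbp3*, a guanylate-binding protein gene, had 501 and 428 in LV and 199.9 and 210.1 in 4V (log2 fold change 1.18, standard error 0.19, adjusted p = 0.000711), and *Bst2*, which tethers viruses, 223 and 191 in LV and 124 and 100.3 in 4V, with a call lost without 4V pool B. Without LV pool B, 8 interferon-inducible genes were called toward LV, and without 4V pool B 1. None of the 17 complement, 19 cell cycle and 17 immediate early genes passed the threshold in edgeR's test (10, 3 and 4 had an unadjusted p under 0.05, and DESeq2 called 2, 1 and 0), while 4 complement genes, *C1ra*, *C4b* and *Cd55* among them, had been called in the vehicle pools, higher in LV. Leaving out a pool gave up to 3, 2 and 4 calls toward LV in these lists, and 1 cell cycle gene toward 4V without LV pool A or without 4V pool B. Of 18 retinoid genes tested, 1 (5.56%, beside 5.87% of all genes) was called. It was *Crabp1*, a retinoic acid-binding protein gene, higher in LV with 22.6 and 37.1 normalized counts against 2.04 and 1.89 in 4V (log2 fold change 3.85, standard error 0.68, adjusted p = 0.00166). *Crabp1* entered the test through its LV pools alone, which fixed its direction.

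Messenger RNAs of the mitochondrial genome were not called in the Cre-Tat pools by edgeR or DESeq2 (0 had an unadjusted p under 0.05), where the 7 tested had a median log2 fold change of 0.10. In the vehicle pools all 7 were higher in LV, with a median of 0.97. The cytochrome b gene *mt-Cytb* had 57644 and 83210 normalized counts in Cre-Tat LV pools A and B and 45788 and 84156 in Cre-Tat 4V pools A and B. In the vehicle pools it had 61347 and 78687 in LV and 37520 and 33587 in 4V. The Cre-Tat groups overlapped and the vehicle groups did not. Pool A of either ventricle was lower than pool B in the Cre-Tat set for this gene. The test of the difference between the comparisons gave unadjusted p-values of 0.00553 (*mt-Nd1*) to 0.0497 (*mt-Co1*) and adjusted p-values of 1.00 for all 7 in edgeR. With no filter on low counts, 6 of the 7 passed the threshold, from *mt-Nd2* (adjusted p = 0.000242) to *mt-Nd6* (adjusted p = 0.0318), toward 4V. The filter had removed none of these abundant genes. The difference of the log2 fold changes of *mt-Nd2* was -1.13 with the filter and -1.14 without it. The fits thus differed mainly in the spread given to these genes, and the calls without the filter add no support.

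Markers of the other cell types that ChP samples can hold were compared in the same pools. Beside 5.87% of all genes tested, the share called was 6.67% of epithelial, 55.6% of endothelial and 37.5% of mural cell markers. It was 50% of neuronal and 33.3% of oligodendrocyte markers tested, all in short lists. The neuronal share includes markers that entered the test mainly through the LV pools. All 15 epithelial markers were present in every pool, and 1 of them, *Folr1*, was called by edgeR, higher in LV. DESeq2 called 5, all toward LV, and the other alternatives by library number called 0 to 4. The epithelial sum, mostly *Ttr*, was 2390820 and 3160730 normalized counts in Cre-Tat LV and 1914710 and 1704390 in Cre-Tat 4V. Of 9 endothelial markers tested, 5 were higher in LV and none in 4V, and their summed level was 6120.5 and 5434 in LV and 3121 and 3704 in 4V. *Pecam1* had 617 and 583 in LV and 336 and 329 in 4V, and *Plvap*, of fenestrated vessels, 803 and 884 in LV and 273 and 386 in 4V (log2 fold changes 0.85 and 1.35). Of all genes called in the vehicle pools, 45.4% were called again after Cre-Tat. All 4 endothelial markers called in the vehicle pools were called again, and leaving out a pool gave 2 (without 4V pool A), 3 (without 4V pool B) and 7 (without LV pool B) calls. Of 8 mural cell markers, 3 were higher in LV, and without 4V pool A 1 was.

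Of 8 neuronal markers tested after Cre-Tat, 4 were higher in LV and none in 4V, with sums of 619 and 538 normalized counts in LV and 263 and 239 in 4V, and without 4V pool B 2 were called. In the vehicle pools none of 4 tested passed the threshold, and the sums of 379 and 397 in LV lay within those of 462 and 255.2 in 4V. Among the called markers, *Gad2* had 23.4 and 35.4 in Cre-Tat LV and 9.18 and 6.62 in Cre-Tat 4V. *Slc17a6* had 61.9 and 19.8 in Cre-Tat LV and 12.2 and 1.89 in Cre-Tat 4V. Both passed the filter on low counts mainly through the LV pools, which favoured that direction, and neither was tested in the vehicle pools. The count of neuronal calls is therefore a description of the members tested. *Snap25*, of the synaptic release machinery, had 205 and 151 in Cre-Tat LV and 57.1 and 50.1 in Cre-Tat 4V (log2 fold change 1.73, standard error 0.26, adjusted p = 0.000332). The defining markers *Rbfox3* and *Tubb3* were too low to be tested, *Rbfox3* with 6.04 and 5.17 in LV and 1.02 and 0 in 4V, and *Tubb3* with 10.6 and 9.48 in LV and 1.02 and 0 in 4V. Of 6 oligodendrocyte markers tested, 2 were higher in LV, among them *Mobp* with 258.95 and 167 normalized counts in LV and 27.5 and 20.8 in 4V. The list's sums were 1659 and 1473 in LV and 1147 and 1017 in 4V. These markers moved with the neuronal, channel and myelin genes that were higher in LV, and their part in those results was not tested.

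The remaining marker lists had at most 1 call in each direction. *Slc47a1*, of the meninges, was higher in 4V, while the meningeal sum was 9644 and 16447 in LV and 19295 and 17721 in 4V, mostly *Ptgds*. *Slc1a2* was higher in LV and *Aldh1l1* in 4V among 7 astrocyte markers, *Cx3cr1* in LV among 10 macrophage markers, *Fbln1* in LV among 8 stromal markers and *Car8* in LV among 3 markers of cerebellar neurons. No ependymal marker of 5, lymphocyte marker of 3 or erythroid marker of 2 passed the threshold in edgeR's test (1, 1 and 0 had an unadjusted p under 0.05, and DESeq2 called 0). The erythroid sum was 172 normalized counts in LV pool B and 2.26 in LV pool A, so that LV pool B stands apart for blood genes. Traces of LV genes were seen in 4V pool A (*Nrn1* 20.4 and *Dmrt3* 30.6 normalized counts, against 2.84 and 1.89 in pool B). Without 4V pool A, 778 genes were called, and without LV pool B, 1215.

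**Figure D4:**
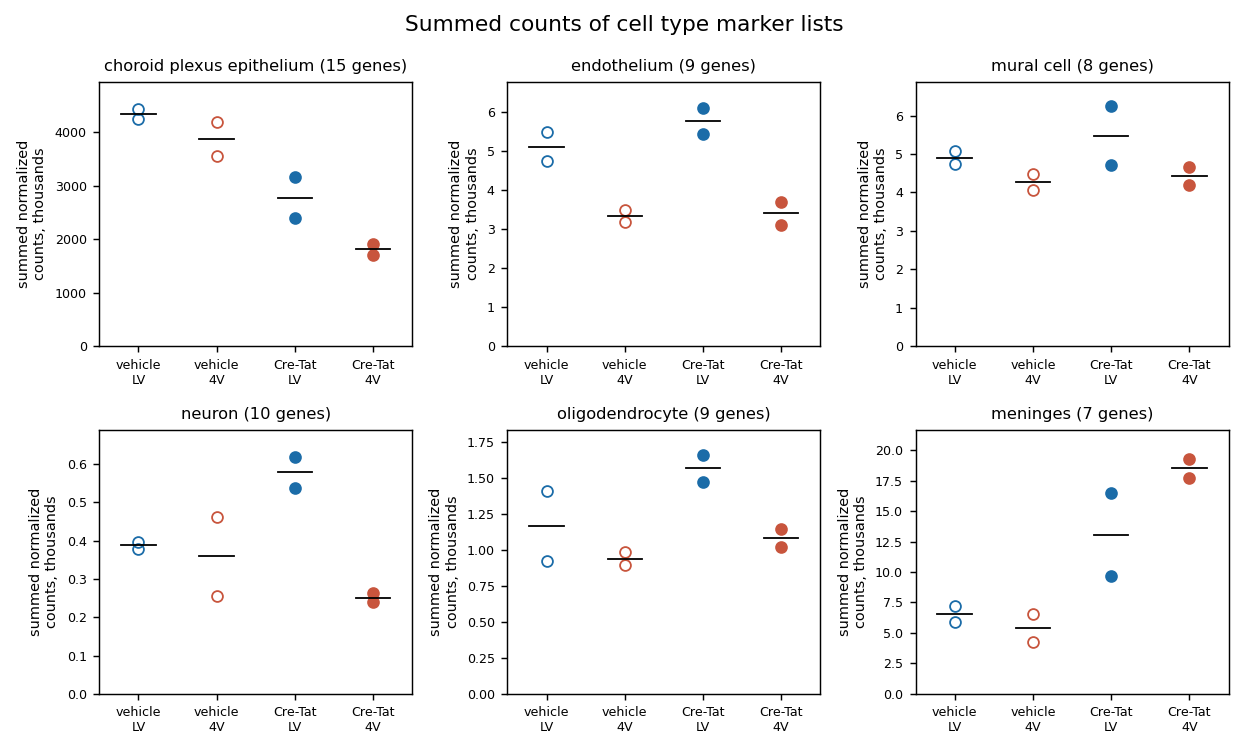
Summed normalized counts, in units of 1000, of the marker lists of 6 cell types in each pool, with open circles for vehicle pools, filled circles for Cre-Tat pools, blue for LV, red for 4V and a line at the mean of 2 pools. In every list but the meninges, the sums of both Cre-Tat LV pools lie above those of both Cre-Tat 4V pools. The meningeal sums lie the other way. Pools did not overlap between the ventricles for 48.3% of all single genes tested.

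A gene called in one comparison and not in the other is not shown to differ between them, so the difference was tested over all 8 pools. Of 15565 genes, 1 (0.00642%) passed an adjusted p of 0.05, and 416 (2.67%) had an unadjusted p under 0.05. That gene was *Gpr176* (ENSMUSG00000040133, chromosome 2 of GRCm38 from 118277110 to 118373419, minus strand), which codes for an orphan G protein-coupled receptor. In the Cre-Tat pools it had 40.0 and 46.6 normalized counts in LV and 253 and 266 in 4V (log2 fold change -2.58, standard error 0.23, adjusted p = 1.58e-06), and in the vehicle pools 34.1 and 56.1 in LV and 39.0 and 24.3 in 4V. Both Cre-Tat 4V pools thus stood above the other 6 pools, which overlapped. The difference of the log2 fold changes was -3.07 (standard error 0.42, adjusted p = 0.0388).

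The next genes toward 4V did not pass the threshold in edgeR's test, but did so with DESeq2. *Edn3*, the gene of the peptide endothelin 3, had 1366 and 1711 normalized counts in Cre-Tat LV and 2114 and 2737 in Cre-Tat 4V, but 719 and 736 in vehicle LV and 393 and 406 in vehicle 4V. The order of the ventricles was opposite in the 2 treatments, with an adjusted p of 0.0666 for the difference in edgeR and 9.66e-06 in DESeq2. *Colec12*, a scavenger receptor gene, showed the same order, with 5132 and 4812 in Cre-Tat LV, 7117 and 7211 in Cre-Tat 4V, 2824 and 3118 in vehicle LV and 1823 and 1919.8 in vehicle 4V (adjusted p = 0.0952 in edgeR and 1.66e-06 in DESeq2). *Sncg*, the gene of gamma-synuclein, was higher in 4V in the Cre-Tat pools, with 295 and 319 in LV and 969 and 799.5 in 4V, against 100.5 and 71.0 in vehicle LV and 89.1 and 57.3 in vehicle 4V (adjusted p = 0.216 for the difference in edgeR and 0.00325 in DESeq2).

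Toward LV, the smallest p-values for the difference were those of the potassium channel genes *Kcnd1* and *Kcnj9*, of *Snap25* and of *Olfm3*, with adjusted p-values of 0.392, 0.4, 0.748 and 1.00. *Kcnd1* had 23.4 and 22.4 normalized counts in Cre-Tat LV, 4.08 and 4.73 in Cre-Tat 4V, 6.28 and 10.3 in vehicle LV and 27.9 and 20.8 in vehicle 4V. All 4 passed the threshold with no filter on low counts. For *Kcnd1* the difference of the log2 fold changes was 3.90 with the filter and 3.89 without it. The fits thus differed mainly in the spread given to such genes, and the calls without the filter add no support. These genes had few reads, apart from *Snap25*. The calls of *Kcnd1*, *Kcnj9* and *Olfm3* within the Cre-Tat pools were lost on leaving out 4V pool A or 4V pool B.

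**Figure D5:**
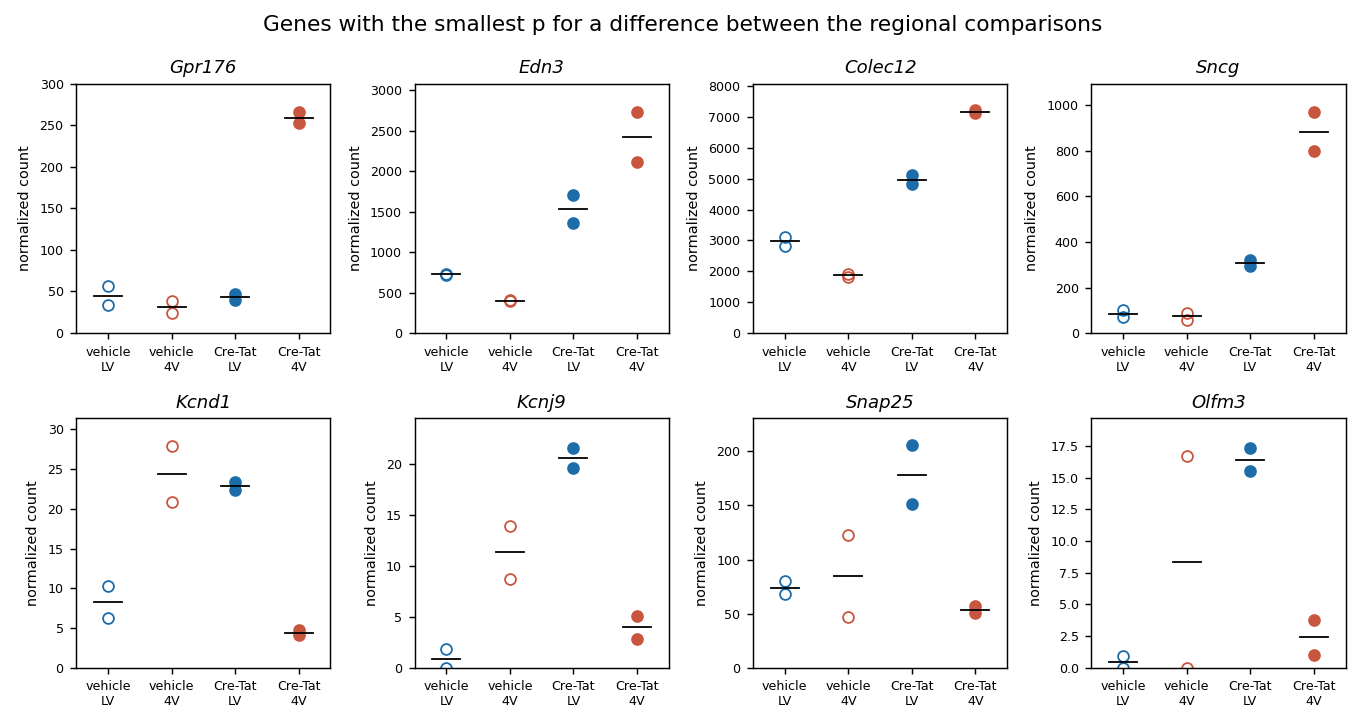
Normalized counts of the 4 genes with the smallest p for a difference between the regional comparisons in each direction (upper row more toward 4V after Cre-Tat, lower row more toward LV), with 1 circle per pool, a line at the mean of 2 pools, open circles for vehicle, filled for Cre-Tat, blue for LV and red for 4V. Each y axis starts at 0 and has its own scale. *Gpr176* lies between 24.3 and 56.1 in 6 pools and at 253 and 266 in both Cre-Tat 4V pools.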

How the data were processed

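RNA of pooled LV and 4V ChP was sequenced in 2 runs per pool as 50-base reads. Per the labels, ribosomal RNA was depleted and libraries were strand-specific, whereas the study's methods describe polyA selection. The authors aligned reads to mm10 and deposited raw read counts per Ensembl transcript, and the processing notes name bcl2fastq 1.8.4, Bowtie 0.12.9, SAMtools, HTSeq 0.5.3 and DESeq 1.8.3. The counting strand is not given in the sources used here.

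Files were assigned by library number and runs were summed. Of 95533 transcripts, 82807 matched the annotation, holding 88.2 to 90.3% of counts, and the most counted transcript stood for each of 33984 genes. Tests used edgeR 4.0.16 in R 4.3.3 (TMM, filterByExpr, quasi-likelihood) on 4 pools per regional comparison and 8 for their difference, with DESeq2 1.42.0 as an alternative, and were tested on simulated data. p-values measure the spread between pools only. Named genes were, by rule, the 12 largest and 5 most abundant calls per direction with separate pools and a mean of at least 100 normalized counts, patterning genes with a count, 4 calls of smallest p per list and the leading genes of the difference. Some genes that the rule names are not reported here. Members and lists were chosen with earlier results of these data known. Alternatives changed the tool, scaling, filter, transcript choice, depth, pools and file assignment.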

Additional observations from a re-analysis of the deposited data

Results flagged for a closer look

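The regional difference of *Gpr176* differed between the treatments in a test of the difference itself. Its log2 fold change, LV over 4V, was -2.58 in the Cre-Tat pools and 0.48 in the vehicle pools, a difference of -3.066 (adjusted p = 0.0388, edgeR). The call was kept with DESeq2, with its size factors in edgeR, with total counts, with no filter on low counts and with the replicate block, and on leaving out Cre-Tat LV pool B, vehicle LV pool A or vehicle 4V pool A. It was lost with a mean count above 10, with counts summed over transcripts, with thinned pools and on leaving out Cre-Tat LV pool A, either Cre-Tat 4V pool, vehicle LV pool B or vehicle 4V pool B.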

How the results depend on the processing

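Of 88 named genes past the threshold in the Cre-Tat pools, 61 kept call and direction wherever they were tested under the 13 alternatives that keep the library numbers. The call was lost by 27 in at least 1, and none changed direction. Not every gene was tested in each. With pools thinned to one depth 76 kept and 7 lost the call, and with a mean count above 10 it was 85 and 2. The rest of the 88 were not tested in these settings. The number of genes called in the Cre-Tat pools was 887. It was 1533 with total counts in place of TMM (1164 of them higher in 4V), 1351 with no filter on low counts (723 higher in LV), 765 with DESeq2 and 441 to 1504 on leaving out each pool. Toward LV the latter gave 226 to 892 and toward 4V 215 to 644. In the vehicle pools, 1083 became 1840 with no filter (864 and 976 toward LV and 4V), 717 with all 8 pools in one fit (332 and 385) and 400 to 1968 on leaving out a pool (218 to 752 toward LV and 182 to 1216 toward 4V), and total counts gave 252 toward LV and 1222 toward 4V. The difference between the comparisons had 1 call, against 5 with DESeq2, 31 with no filter, 0 with a mean count above 10, 0 with counts summed over transcripts, 0 with pools thinned to one depth and 0 to 3 on leaving out a pool. The vehicle genes that remained numbered 489, against 764 with total counts, 803 with no filter and 270 to 590 on leaving out a pool. The causes of these shifts were not tested, except that fewer pools or genes entered where the setting says so.

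Pools with the same letter did not deviate together beyond a correlation of 0.0688 in the Cre-Tat and 0.0622 in the vehicle pools over 15565 genes, so the letters are not shown to pair the pools. With the letter as a replicate block, 1177 genes were called in the Cre-Tat pools, 2288 in the vehicle pools (1050 toward LV and 1238 toward 4V) and 6 for the difference between the comparisons, and 736 vehicle genes remained.

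With the files taken as attached to the samples, 4809 genes were called in the Cre-Tat columns (2396 and 2413 toward LV and 4V), 4718 in the vehicle columns (2283 and 2435) and 5258 for the difference. By library number, the Cre-Tat 4V columns then held LV libraries and the vehicle LV columns 4V libraries. Sign changes are listed for named genes called by library number or as attached, and those of other named genes are not listed. The log2 fold changes with opposite sign there were, below 0, *Dmrt3* -0.031, *Nrn1* -0.39, *Emx2* -0.14, *Slc17a8* -0.14, *Adra2c* -0.29, *Mobp* -0.045, *Ano3* -0.31, *Nipal2* -0.30, *Slc6a17* -0.28, *Sulf1* -0.12, *Folr1* -0.18, *Vcam1* -0.074, *Ctsl* -0.071, *Otx1* -0.39, *Msx1* -0.13, *Smo* -0.15, *Sfrp5* -0.30, *Dkk3* -0.22, *Inhbb* -0.043, *Igfbp4* -0.030, *Col4a1* -0.30, *Col23a1* -0.29, *Col4a2* -0.20, *Slc1a2* -0.62, *Slc35f1* -0.16, *Cacna1h* -0.30, *Crabp1* -0.28, *Gbp3* -0.071 and *Kcnd1* -0.088, and, above 0, *Gdf7* 1.34, *C1qtnf3* 1.79, *Meis1* 1.11, *Tbc1d1* 0.45, *Pthlh* 0.30, *C1ql3* 0.47, *Meis2* 0.070, *Gm853* 0.54, *Malat1* 0.52, *Zbtb20* 0.41, *Neat1* 0.59, *Otx2* 0.16, *Zic1* 0.14, *Zic4* 0.019, *Rfx3* 0.23, *Gmnc* 0.63, *Disp1* 0.14, *Gas1* 0.069, *Slit2* 0.18, *Nrp2* 0.044, *Cacnb3* 0.10, *Cfap46* 0.084, *Dnah11* 0.39, *Dnah6* 0.23, *Cfap74* 0.12 and *Sncg* 0.047.

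Depth limits the genes with few reads, such as the Hox genes, *Six3* and *Shh*, and 2 pools a side leave single pools to decide many calls.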
